A study of Mus musculus with 16 samples.

Results

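The epidermal differentiation complex is a run of genes on mouse chromosome 3 whose products build the outermost, dead layer of the skin. Its members were taken by symbol from a count table of 14858 genes: every symbol that begins with Sprr, or with Lce or S100a and a digit, together with Lor, Flg2, Hrnr, Rptn, Crnn and Ivl. This gave 36 genes, all on chromosome 3 between positions 90511034 and 93564645 (mm10). They fell by role into 12 S100 genes, 4 fused S100 genes (Crnn, Flg2, Hrnr, Rptn), Lor and Ivl, 4 small proline-rich genes (Sprr1a, Sprr1b, Sprr2h, Sprr4) and 14 late cornified envelope genes (Lce6a and 13 Lce1 genes). Flg, the gene of filaggrin, was not analysed here.

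Messenger RNA of whole skin from the hind limb was captured with exon probes and sequenced from female BALB/cAnNTac mice of about 10 to 16 weeks of age. The ESE group (exposure to space environment) had 10 mice that had lived on the International Space Station (ISS), and the 6 ground controls were age-matched mice kept on Earth in similar housing. By the 5-methylcytosine content of their DNA the study divided the ESE group into a responder ESE cohort (low 5-methylcytosine, n = 4) and a non-responder ESE cohort (high 5-methylcytosine, n = 6). Each group also held mice of both mission arms. In the ISS arm (3 ground controls, 3 non-responders, 2 responders) the flown mice were killed on orbit after 22 to 23 days, and in the live animal return (LAR) arm (3 ground controls, 3 non-responders, 2 responders) they spent 40 days in space and were killed 2 days after landing. The arm was read from mouse names in the study's sample table. No gene was altered and no agent was given, so the flight, with launch and, in the LAR arm, landing, is what differs between exposure groups.

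Keratinocytes leave the basal layer, switch to the suprabasal keratins Krt1 and Krt10, and in the granular layer make loricrin, filaggrin-type proteins, involucrin, small proline-rich and late cornified envelope proteins. Transglutaminases then crosslink these under the plasma membrane into the cornified envelope, while filaggrin, a fused S100 protein, bundles keratin filaments. S100 proteins are small calcium-binding proteins, and S100a8 with S100a9 forms calprotectin, carried by neutrophils and also made by stressed keratinocytes. Several members are made in the hair follicle as well as in the epidermis: S100a3 is a protein of the hair cuticle, and repetin is found in the inner root sheath.

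Total counts ran from 4159342 to 22593931 per library, and the ribosomal gene Rn45s took 12.9% to 51.9% of them. RNA was degraded in every library (RNA integrity number 1.2 to 2.7). Some libraries carried much RNA of other tissues. Ground control replicate 6 had 63853 CPM (counts scaled to the TMM-adjusted size of the library) of 14 skeletal muscle markers, where the other 15 libraries had 12.6 to 5740. Non-responder replicate 4 had 5103 CPM of 6 adipocyte markers (92.4 to 844 elsewhere), and responder replicate 1 had 2239 CPM of 6 liver markers (0.767 to 121 elsewhere). The sum of 14 anagen hair markers, genes of the growing follicle, ranged from 837 to 161497 CPM. In such bulk samples fewer cells of a type and less RNA per cell cannot be told apart.

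The labelled tissue was borne out by its markers: all 6 basal and all 6 suprabasal keratinocyte markers were measured, with summed levels of 1762 to 10984 and 2519 to 14996 CPM. Summed over all 36 members, the complex gave 1979 CPM (non-responder replicate 4) to 12122 CPM (ground control replicate 4).

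Levels were set side by side per kilobase of transcript, since longer genes collect more reads. The scale here is CPM per kilobase, as the mean ± SD over the 16 libraries. Ivl, the gene of involucrin, an early scaffold of the envelope, stood highest at 802 ± 774. Lor, whose product loricrin is the main protein of the finished envelope, followed at 502 ± 443. These neighbours in the order did not differ beyond their spread. Sprr1a, a crosslinking bridge of the envelope, had 301 ± 406, and Flg2, a filaggrin-like protein, had 260 ± 157. S100a6 (189 ± 141), Crnn, the gene of cornulin (149 ± 225), and Lce1m (133 ± 119) came next, again with spreads larger than the steps between them. At the low end stood Lce1g (0.775) and Rptn (0.669), with medians of 4.5 and 13.5 counts per library.

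**Figure D1:**
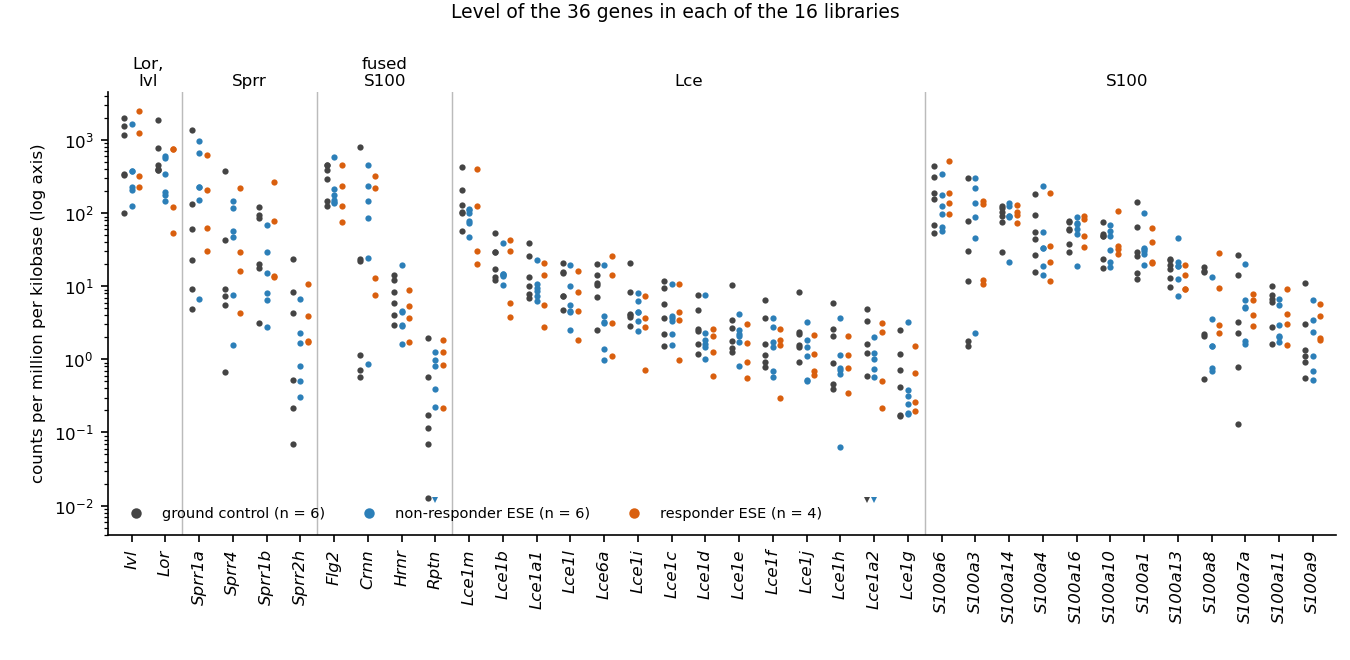
Level of each of the 36 genes in CPM per kilobase (log axis), by role class and in falling order of the mean within a class; each point is 1 library, coloured by group, and triangles at the foot of the plot mark a count of 0. Ivl and Lor lie highest, most Lce1 genes lie under 10, and the points of the 3 groups overlap for all genes.

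The Lce class was uneven. Lce1m alone reached 182 to 3614 counts per library, and Lce1b 31 to 279. In 2 of the 14 Lce genes the median library had fewer than 10 counts, and Lce1a2 had a count of 0 in 2 libraries (ground control replicate 3 and non-responder replicate 1). A count of 0 says only that the gene was not detected at that depth. Reads that matched several places were left out by the authors, and the Lce1 genes and the Sprr genes are near copies of one another, so the split of reads among them is uncertain.

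The members differed widely in how steady they were from mouse to mouse. The biological coefficient of variation of the 2-group fit, the spread between mice beyond counting error, was 0.42 for S100a16 and 0.45 for S100a14, which stood at the 56.0th and 61.2th percentile of all genes tested. It was 1.58 for Crnn (99.2th percentile), 1.35 for Sprr4, 1.30 for Sprr1a and 1.23 for S100a3. Lor had 0.72, Ivl 0.91, and the tested Lce1 genes lay between those of Lce1a1 at 0.61 and Lce1a2 at 0.81.

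To see which members moved together, the 36 genes were clustered by the correlation of their log2 CPM over the 16 libraries (average linkage, 6 sets). The sets were drawn from the same values that describe them, so no test is given. Of 630 pairs, 482 had a correlation above 0, with a median Pearson r of 0.41 (n = 16 libraries, which share depth and tissue makeup). S100a1 and S100a13 each stood alone, S100a10 and S100a11 made a pair (r = 0.87), and the remaining 32 genes formed 3 larger sets that cut across the role classes.

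**Figure D2:**
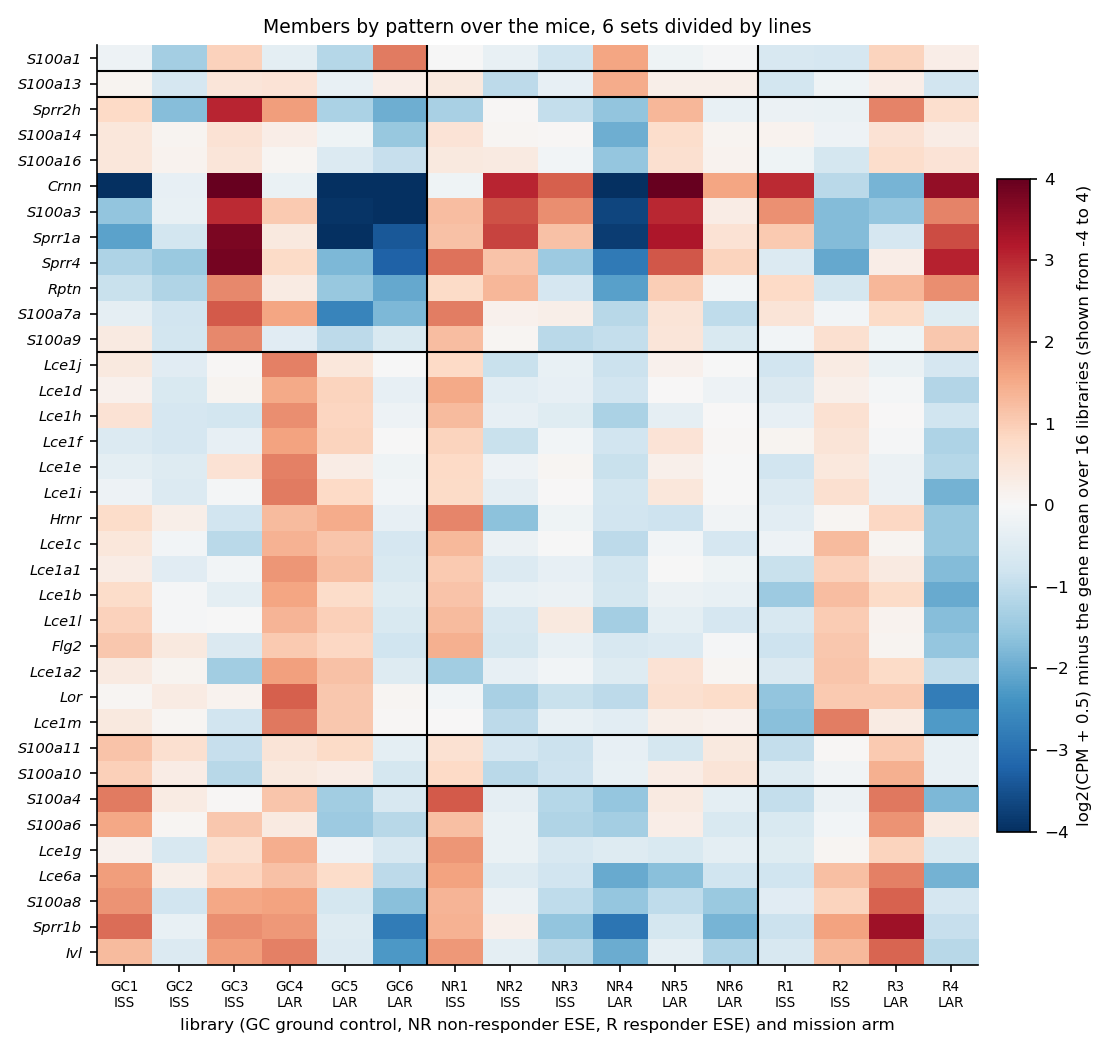
Heat map of the 36 members (rows, in clustering order) over the 16 libraries (columns, by group and arm); colour gives log2(CPM + 0.5) minus the gene's mean over the libraries, and lines divide the 6 sets and the 3 groups. Crnn, S100a3, Sprr1a and Sprr4 change most over the 16 libraries, and Lor moves with the Lce1 genes.

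The first larger set held 10 genes: Crnn, Rptn, Sprr1a, Sprr2h, Sprr4, S100a3, S100a7a, S100a9, S100a14 and S100a16. Cornulin and repetin are fused S100 proteins, and Sprr1a and Sprr4 are proline-rich bridges. In the ground controls Crnn had 1.90, 36.6, 1322, 38.2, 1.17 and 0.942 CPM in replicates 1 to 6. In the non-responder ESE cohort it had 40.2, 380, 243, 1.40, 746 and 138 CPM, and in the responder ESE cohort 365, 21.2, 12.2 and 526 CPM. Crnn thus spanned a 1404-fold range over mice of 1 strain and sex, and the ranges of the 3 groups overlapped.

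Sprr1a followed it. It had 17.9, 47.9, 1104, 106, 3.88 and 7.22 CPM in the ground controls, 181, 524, 183, 5.28, 768 and 121 CPM in the non-responders and 166, 24.1, 49.96 and 489 CPM in the responders. The correlation of S100a3 with Sprr1a was 0.98 and that of Crnn with Sprr1a was 0.96, both over 16 libraries. S100a3 was lowest at 1.10 CPM in ground control replicate 6 and highest at 218 CPM in non-responder replicate 5.

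This set moved with the hair markers of the same libraries. Each of its 10 genes correlated with the summed anagen hair list (Pearson r 0.67 to 0.94, median 0.85). The median was 0.03 for the 15 genes of the Lor set and 0.44 for the 7 genes of the Ivl set, both described below. The hair-linked genes had a median of -0.02 with the suprabasal keratinocyte list. Their medians were 0.50 with the wound keratins (Krt6a, Krt6b, Krt16, Krt17) and 0.61 with the melanocyte markers. Within the ISS arm the 10 correlations ran from 0.40 to 0.93 and within the LAR arm from 0.73 to 0.96 (n = 8 each). Crnn was at or under 1.90 CPM in 4 libraries and at or above 12.2 CPM in the other 12, and over those 12 the 10 correlations ran from 0.50 to 0.88. The hair list stood at 837, 1013 and 1908 CPM in ground control replicate 6, non-responder replicate 4 and ground control replicate 5, which were 3 of the 4 libraries lowest in Crnn. It stood at 161497 and 78348 CPM in the libraries highest in Crnn, ground control replicate 3 and non-responder replicate 5. The fourth library of low Crnn, ground control replicate 1, had 9637 CPM of hair markers.

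The second larger set held 15 genes: Lor, Flg2, Hrnr and the 12 Lce1 genes other than Lce1g. Hornerin (Hrnr) and Flg2 are filaggrin-type proteins of the granular layer. Pairs within it had a median r of 0.80 (0.36 to 0.95), with 0.91 for Lor and Lce1m and 0.92 for Flg2 and Lce1b. Its genes correlated with the summed suprabasal keratinocyte list, genes of the layers that make the envelope, at 0.51 to 0.90 (n = 16), at 0.19 to 0.93 within the ISS arm and at 0.75 to 0.94 within the LAR arm.

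Lor had 686, 812, 715, 3407, 1371 and 688 CPM in ground control replicates 1 to 6. The non-responders had 603, 264, 350, 315, 1017 and 1082 CPM, and the responders 217, 1335, 1337 and 95.4 CPM. The highest Lor level was thus in ground control replicate 4 and the lowest in responder replicate 4, with wide overlap between the groups. The same 2 libraries held the highest and lowest level of Lce1m (371 and 17.8 CPM), Lce1b (35.2 and 2.47) and Lce1i (15.5 and 0.518). Suprabasal keratinocyte markers summed to 13810 CPM in the former and 2774 CPM in the latter.

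The set also moved with the ribosomal share. Spearman's rho with the share of Rn45s was 0.30 to 0.81 over its 15 genes (median 0.69), and with the total counts -0.75 to -0.21. Ground control replicate 4 had 45.6% Rn45s and responder replicate 4 had 12.9%, the lowest. The part of this in the levels was not tested.

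The third larger set held 7 genes: Ivl, Sprr1b, S100a4, S100a6, S100a8, Lce6a and Lce1g. For Ivl the libraries fell into separate ranges. In 6 libraries (ground control replicates 1, 3 and 4, non-responder replicate 1, responder replicates 2 and 3) it had 2283 to 4786 CPM, and in the other 10 it had 195 to 735 CPM. Sprr1b, which adds bridges to the envelope of stressed epidermis, had 55.9 to 223 CPM in those 6 and 2.30 to 24.1 CPM in the other 10. S100a8, a subunit of calprotectin, had 3.67 to 11.1 CPM against 0.209 to 1.42 CPM. Keratins of wounded or dividing epidermis and of the hair follicle (Krt6a, Krt6b, Krt16, Krt17) had a sum of 3828 to 8278 CPM in the 6 libraries and 259 to 1157 CPM in the 10. Krt17, most of that sum, had the gap (3582 to 7786 against 227 to 1072 CPM), and so had Krt16 (197 to 440 against 15.6 to 65.5 CPM). Krt6a overlapped (21.1 to 72.6 against 6.14 to 66.1 CPM), and Krt6b was at or under 1.12 CPM in all libraries. The 6 libraries came from all 3 groups and both arms. Within them Ivl still correlated with the wound keratin sum (r = 0.94, n = 6), as it did within the other 10 (r = 0.93, n = 10). The share of Rn45s was 27.0% to 51.9% in the 6 and 12.9% to 36.4% in the 10, and total counts were 4159342 to 14270016 and 10791347 to 22593931. The part of this in the levels was not tested.

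**Figure D3:**
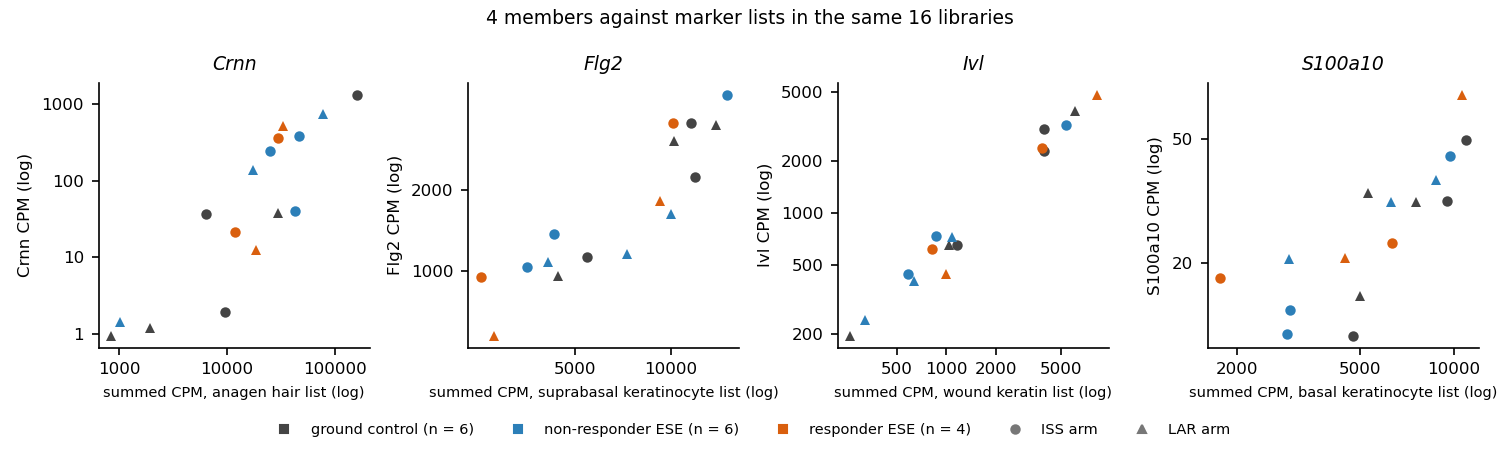
Crnn, Flg2, Ivl and S100a10 (CPM, log axes) against the summed CPM of the marker list each moved with, 1 point per library, coloured by group and shaped by mission arm. Crnn spans 0.942 to 1322 CPM along the hair list, and Ivl falls into 2 separate ranges, from 2283 and up to 735 CPM, with ground control, non-responder and responder libraries in both.

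Outside these sets, S100a10 and S100a11, partners of annexins, correlated with the basal keratinocyte list at 0.79 and 0.84 (n = 16). With the suprabasal keratinocyte list their correlations were 0.74 to 0.80, so the pair was not particular to the basal list. S100a1, known from heart and skeletal muscle, was highest at 88.9 CPM in the muscle-rich ground control replicate 6 and next at 62.5 CPM in the adipocyte-rich non-responder replicate 4, where the other 14 libraries had 7.74 to 39.9 CPM. Ground control replicate 5, second in muscle markers (5740 CPM), had 9.22 CPM of S100a1. Over the 16 libraries S100a1 had r = 0.31 with the muscle list, 0.59 with the adipocyte list and 0.54 with the fibroblast list. Of the calprotectin subunits, S100a9 stayed between 0.275 and 5.81 CPM. Only 5 of 13 neutrophil markers were measured, with sums of 3.07 to 123 CPM, and the library highest in them, non-responder replicate 4, had 0.271 CPM of S100a8 and 0.361 CPM of S100a9.

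Of 8 gene pairs named for their roles, 6 could be computed over the 16 libraries, and the 2 with Flg were not analysed here. Lor correlated with Krt10, a suprabasal keratin (Pearson r = 0.85, permutation p = 5.0e-05, adjusted over 6 pairs 0.00015, and Spearman's rho = 0.72, permutation p = 0.0024, adjusted 0.0049). It held without the 2 libraries farthest from the median of Lor (r = 0.79) and within the arms (0.83 in ISS, 0.96 in LAR).

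The pairs of Ivl with Tgm1, a transglutaminase, and of Sprr1b with Krt16 are given within the ranges of Ivl, since the libraries fell apart there. Ivl and Tgm1 had r = 0.84 within the 10 lower libraries (rho = 0.72) and r = -0.50 within the 6 higher ones (rho = -0.03). Sprr1b and Krt16 had r = 0.69 (rho = 0.62) and r = 0.35 (rho = 0.09). S100a8 fell into the same ranges, and with S100a9 it had r = 0.40 (rho = 0.35) within the 10 and r = -0.41 (rho = -0.60) within the 6. S100a9 with Csf3r, a neutrophil receptor, had r = 0.21 (permutation p = 0.43, adjusted 0.51) and rho = 0.21 (permutation p = 0.42, adjusted 0.50). Csf3r lay near the floor, at 0 to 1.49 CPM (median 0.133), so this pair can show little either way. S100a4, a fibroblast and immune cell protein as well, had r = -0.11 with Col1a1 (permutation p = 0.68, adjusted 0.68) and rho = -0.13 (permutation p = 0.63, adjusted 0.63). The pairs with Csf3r and Col1a1 had r of 0.16 and -0.17 without the 2 libraries farthest on the x axis. They had 0.33 and 0.25 within the ISS arm, and -0.05 and -0.34 within the LAR arm.

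The promoters of the members were read from RefSeq (GRCm38.p6, the build of mm10), with 250 bases before and 50 after the start, and 33 of 36 members were matched. AP-1, a factor bound to many envelope genes, recognises TGANTCA. It was found on either strand in 10 of the 33 (30.3%), against 7.81% of 32851 promoters in the table. The TATA box TATAAA was in 14 of 33 (42.4%, against 13.6%), and the Grainyhead-like motif AACCNGTT in 2 of 33 (6.06%, against 2.09%), S100a9 and Rptn. No match overlapped one of another motif. The classes differed: AP-1 was matched in 2 of 2 of Lor and Ivl, 3 of 4 Sprr and 3 of 4 fused S100 genes, 2 of 10 S100 genes and 0 of 13 Lce genes. A match describes letters in this window and shows no binding.

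The 150 bases before the start are shown for 8 members of the 3 larger sets, since they hold most of the AP-1 matches. Matches to AP-1 and to the TATA box are in capitals, and each sequence is on the strand of its gene. Crnn and Rptn both carry the AP-1 letters from position -96. Lce1m and Lce1i, which moved with Lor, carry none, while Flg2 of the same set carries them from position -69 and is not shown.
Crnn, chr3:93144639-93144788, plus strand: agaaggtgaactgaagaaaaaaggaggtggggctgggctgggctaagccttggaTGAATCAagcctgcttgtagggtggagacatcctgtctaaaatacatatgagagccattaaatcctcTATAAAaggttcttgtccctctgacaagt
Rptn, chr3:93393549-93393698, plus strand: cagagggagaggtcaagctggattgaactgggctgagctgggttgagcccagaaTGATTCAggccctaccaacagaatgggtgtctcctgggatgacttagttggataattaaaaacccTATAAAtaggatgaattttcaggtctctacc
Sprr1a, chr3:92485882-92486031, minus strand: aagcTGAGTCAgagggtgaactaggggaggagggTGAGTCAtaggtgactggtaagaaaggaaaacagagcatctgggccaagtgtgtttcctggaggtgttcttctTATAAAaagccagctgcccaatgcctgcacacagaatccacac
Ivl, chr3:92573736-92573885, minus strand: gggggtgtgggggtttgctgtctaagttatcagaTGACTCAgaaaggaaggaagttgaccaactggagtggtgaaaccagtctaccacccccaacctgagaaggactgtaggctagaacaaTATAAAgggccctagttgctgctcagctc
Sprr1b, chr3:92438780-92438929, minus strand: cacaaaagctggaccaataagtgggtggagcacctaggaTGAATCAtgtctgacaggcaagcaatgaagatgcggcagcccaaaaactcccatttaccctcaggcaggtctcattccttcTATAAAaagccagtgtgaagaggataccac
Lor, chr3:92083143-92083292, minus strand: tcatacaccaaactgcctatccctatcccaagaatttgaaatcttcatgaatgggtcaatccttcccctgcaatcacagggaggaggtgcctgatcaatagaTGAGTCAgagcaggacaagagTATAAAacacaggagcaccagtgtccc
Lce1m, chr3:93019062-93019211, minus strand: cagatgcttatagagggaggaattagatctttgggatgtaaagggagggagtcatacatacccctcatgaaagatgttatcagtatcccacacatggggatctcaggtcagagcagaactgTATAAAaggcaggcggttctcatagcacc
Lce1i, chr3:92778900-92779049, minus strand: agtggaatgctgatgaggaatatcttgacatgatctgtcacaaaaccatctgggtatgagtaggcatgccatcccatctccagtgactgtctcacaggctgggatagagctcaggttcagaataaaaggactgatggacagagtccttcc

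The ESE group was then compared with the ground controls, the main question of the study's RNA sequencing. No member passed the test. In edgeR's quasi-likelihood test over 13577 genes, 0 of 35 members tested (Lce1g was too low) passed an adjusted p of 0.05, as did 0% of all genes, and the smallest adjusted p of a member was 0.62. DESeq2, the likelihood ratio test and limma-voom also called 0 members, with 3, 13 and 0 of all genes. At an unadjusted p under 0.05 there was 1 member, Lce1j, where 7.86% of all genes reached that level, so the members' share lay under the background.

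The late cornified envelope genes leaned lower without passing the test. All 13 tested had log2 fold changes below 0 in the ESE group (median -0.67, range -1.14 to -0.39), where the median of all genes was -0.04 and 7420 of 13577 were below 0. They moved together over the mice, so their shared sign is not 13 separate observations. Without ground control replicate 4, the library highest in most of them, their median was -0.24. Lce1j had 0.645, 1.32 and 5.86 CPM as lowest, median and highest ground control and 0.354, 0.793 and 2.23 CPM in the ESE group. These ranges overlapped. The fitted difference was -1.14 ± 0.50 on the log2 scale (± SE here and below, adjusted p = 0.62), and -0.48 without ground control replicate 4.

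Lor had the second smallest p. Its ground controls ran from 686 over a median of 764 to 3407 CPM and the ESE group from 95.4 over 476 to 1337 CPM, a log2 fold change of -0.95 ± 0.54 (adjusted p = 0.63). In 6 of the 10 ESE mice Lor was below every ground control. Lce1e, another Lce1 gene, came next with -0.84 ± 0.50 (adjusted p = 0.63). Lor stood at -0.37 and Lce1e at -0.13 without ground control replicate 4. Ivl differed by -0.35 ± 0.71, Flg2 by -0.44 ± 0.42, Hrnr by -0.53 ± 0.50 and Crnn by 0.09 ± 1.36, so the error of Crnn spans several-fold change either way. The S100 genes had 4 above and 8 below 0 (median -0.08) and the Sprr genes 1 above and 3 below (median -0.16).

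Genes that work with the members did not pass the test either. Of 14 crosslinkers and partners of the envelope 13 were tested, and all 13 had values below 0 (median -0.36); those of smallest p were the desmosomal cadherin Dsg1a (-0.55 ± 0.34) and the envelope protein Scel (-0.48 ± 0.32). Of 18 processing enzymes, 13 were below 0 (median -0.23), with Casp14, the protease of filaggrin breakdown, at -0.50 ± 0.30 and Ctsl at -0.59 ± 0.38. Of 26 transcription factors of the granular layer, 19 were below 0 (median -0.13), with Satb1 at -0.70 ± 0.33 and Klf4, a driver of barrier formation, at -0.70 ± 0.38. Basal keratinocyte markers had a median of -0.35 and suprabasal ones of -0.44, and adjusted p-values of all genes named here were 0.62 to 0.65. The part of keratinocyte content in the values of the members was not tested. A fit with Krt5 and Krt14 as a covariate called 0 members, as did the fit without it, so that count does not bear on it.

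**Figure D4:**
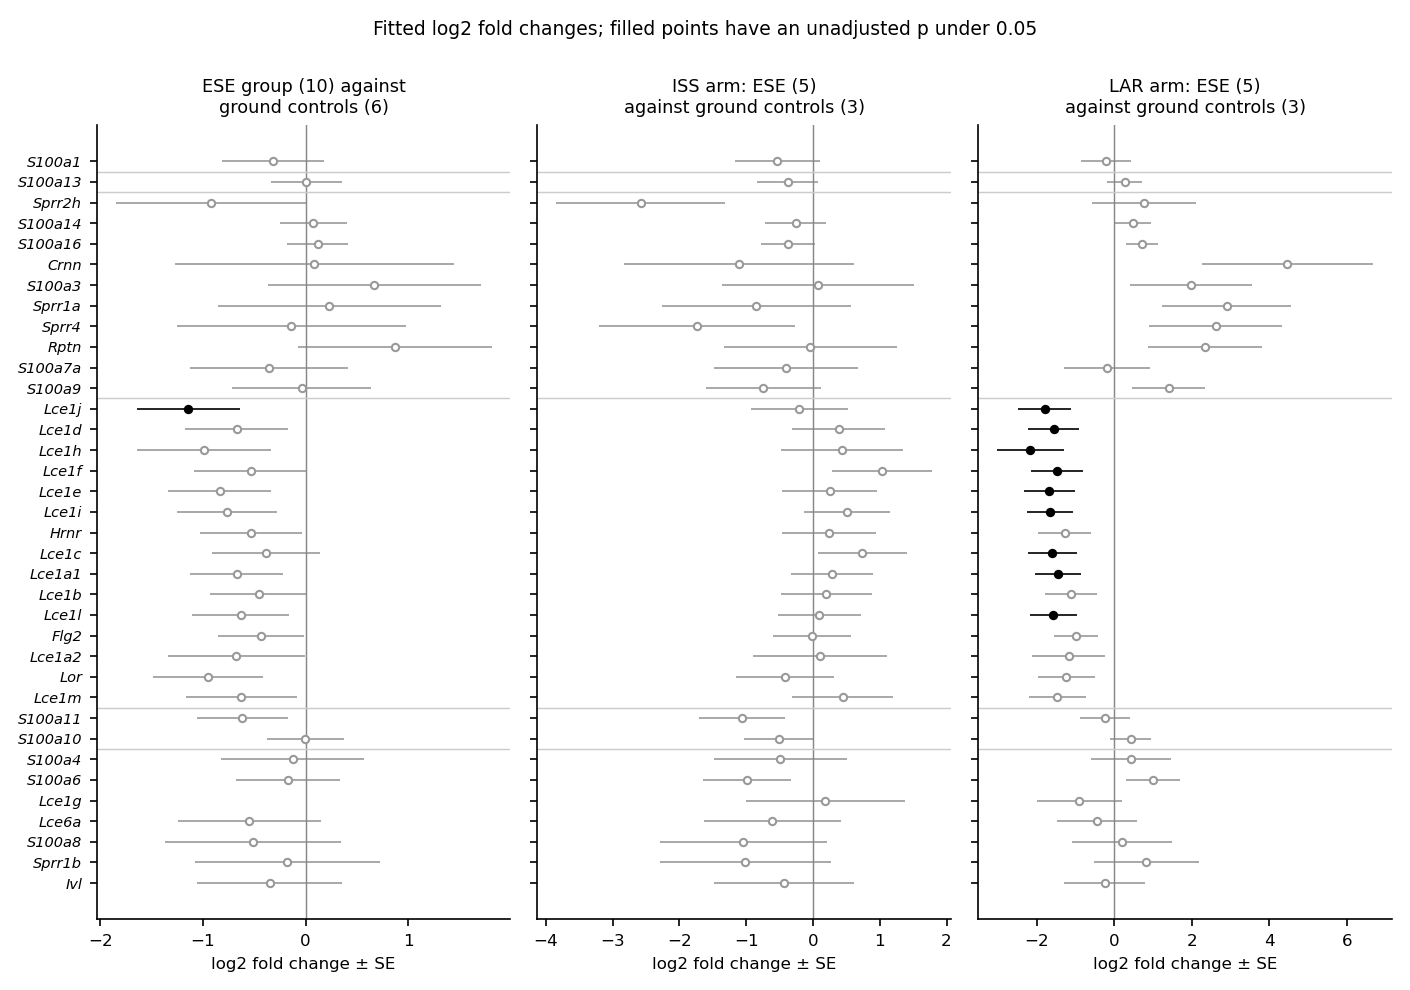
Log2 fold change ± SE of each member (rows in clustering order, lines dividing the sets) in the ESE group against the ground controls, in the ISS arm and in the LAR arm; filled points have an unadjusted p under 0.05, and no point passes the adjusted threshold. The Lce1 genes lie left of 0 in the LAR arm and mostly right of 0 in the ISS arm, and Crnn, Sprr1a, Sprr4 and Rptn have the widest errors.

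The responder and non-responder ESE cohorts were each set against the same 6 ground controls in a 3-group fit of 14107 genes. In the responders 0 of 35 members passed, against 0.00709% of all genes, and in the non-responders 0 of 35 passed, against 0% of all genes. Unadjusted, 0 members were under 0.05 in the responders (background 3.42%) and 0 in the non-responders (6.96%), and DESeq2, the likelihood ratio test and limma-voom called 0 members in both. Of all genes these tools called 20, 21 and 0 in the responders and 3, 0 and 0 in the non-responders. Lce1j was again the member of smallest p, at -1.27 ± 0.68 in the responders (adjusted p = 0.98) and -1.04 ± 0.60 in the non-responders (adjusted p = 0.66). Lce1e and Lce1i followed in the responders (-1.15 ± 0.66 and -1.02 ± 0.64), and Lor (-1.08 ± 0.63) and S100a8 (-1.56 ± 0.97) in the non-responders. Without ground control replicate 4 these differences were smaller in size: Lce1j had -0.60, Lce1e -0.45 and Lce1i -0.37 in the responders, and in the non-responders Lce1j had -0.38 and Lor -0.50. Without non-responder replicate 1 S100a8 had -2.44.

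Between the cohorts 0 of 35 members passed (0% of all genes) and 0 were under an unadjusted 0.05 (background 2.17%). The 3 members of smallest p were Sprr1b, S100a8 and S100a13. Sprr1b had 11.2, 65.1, 223 and 10.9 CPM in the responders, and its lowest, median and highest non-responder had 2.30, 9.62 and 55.9 CPM. That is a log2 difference of 2.16 ± 1.03 (adjusted p = 1.0), carried by responder replicates 2 and 3, both among the 6 libraries high in Ivl. S100a8 differed by 1.82 ± 1.03 and S100a13 by -0.69 ± 0.42 (adjusted p = 1.0 each). Without responder replicate 3 Sprr1b had 0.74 and S100a8 0.66, and without non-responder replicate 4 S100a13 had -0.32.

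Each arm was also fitted on its own exposure contrast, in a 4-group fit of 14381 genes that tested all 36 members. In the ISS arm 0 members passed (0% of all genes), and 0 were under an unadjusted 0.05 (background 2.39%). The 4 Sprr genes were below 0 (median -1.37) and 12 of 14 Lce genes above (median 0.27), where all genes had a median of 0.02. The smallest p was that of Sprr2h, at 3.21, 0.161 and 17.4 CPM in the ground controls and 0.372, 1.71, 0.605, 1.33 and 1.29 CPM in the ESE mice (-2.58 ± 1.26, adjusted p = 1.0). S100a11 (-1.07 ± 0.65) and S100a6 (-0.99 ± 0.66) followed. Without ground control replicate 3 Sprr2h stood at -0.61, and without ground control replicate 1 S100a11 stood at -0.54 and S100a6 at -0.62. limma-voom with quality weights called 2 members here, S100a10 and S100a11, both lower, together with 1858 genes in all, while DESeq2 and the likelihood ratio test called 0 members and 0 of all genes.

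In the LAR arm 0 members passed as well (0% of all genes, smallest adjusted p of a member 0.43). DESeq2, the likelihood ratio test and limma-voom called 0 members, with 113, 70 and 0 of all genes. Unadjusted, 9 of 36 members were under 0.05, where 9.37% of all genes were. All 9 were Lce1 genes and all were lower: Lce1a1, Lce1c, Lce1d, Lce1e, Lce1f, Lce1h, Lce1i, Lce1j and Lce1l. The share of all genes that were lower at that level was 5.97%. All 14 Lce genes were below 0 (median -1.51, all genes -0.04).

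Lce1i, the member of smallest p, had 15.5, 6.02 and 2.98 CPM in LAR ground controls and 1.76, 4.60, 3.25, 2.67 and 0.518 CPM in LAR ESE mice. The lowest ground control lay inside the ESE range, and the fitted log2 difference was -1.65 ± 0.60 (adjusted p = 0.43). Lce1j stood at -1.79 ± 0.68 and Lce1l at -1.57 ± 0.60 (adjusted p = 0.44 each). Lce1i stood at -0.82 and Lce1j at -0.77 without ground control replicate 4. In raw counts Lce1i was at 11 to 66 per library. Marker lists also differed in the LAR arm. All 6 suprabasal keratinocyte markers were below 0 (median -0.58), and all 14 muscle markers too (median -5.01). All 5 melanocyte markers were above 0 (median 6.20). Over the 16 libraries the genes of the Lor set correlated with the muscle list at -0.39 to -0.09 and with the melanocyte list at -0.64 to -0.25. The part of these lists in the Lce1 values was not tested. The fit with the Krt5 and Krt14 covariate called 0 members, as did the fit without it.

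Single libraries set how many genes fell under the unadjusted level. The share of all genes at that level was not worked out for fits with 1 library left out, so the counts here have no background beside them. Without ground control replicate 4, 0 of the 14 Lce genes were lower at that level (median -0.81). In that fit 9 members were higher instead: Crnn, Rptn, Sprr1a, Sprr2h, Sprr4, S100a3, S100a6, S100a7a and S100a16. The remaining LAR ground controls had 1908 and 837 CPM of hair markers, and the part of this in the values was not tested. Without responder replicate 4 there were 3 Lce genes (median -1.25), without ground control replicate 5 or non-responder replicate 4 there were 4 each, and without the muscle-rich ground control replicate 6 there were 11 (median -1.94).

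**Figure D5:**
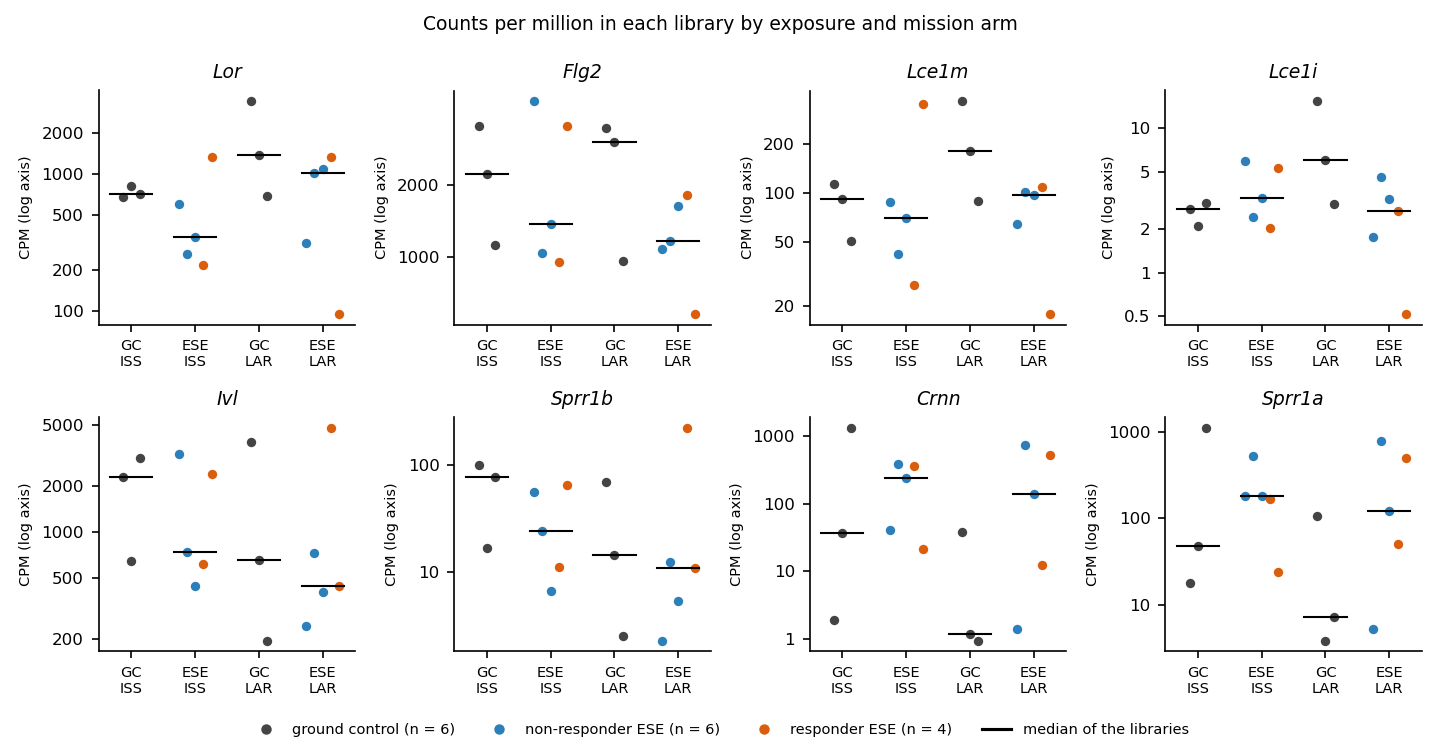
Level in CPM (log axis) of Lor, Flg2, Lce1m, Lce1i, Ivl, Sprr1b, Crnn and Sprr1a in each library by exposure and mission arm; points are libraries coloured by group and bars are medians (3 ground controls and 5 ESE mice in each arm). For Lce1i the LAR ground controls reach 15.5 CPM, the ISS ground controls lie between 2.10 and 3.04, and the ESE mice of both arms overlap them.

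Crnn had 38.2, 1.17 and 0.942 CPM in LAR ground controls and 1.40, 746, 138, 12.2 and 526 CPM in LAR ESE mice, a log2 fold change of 4.46 ± 2.21 (adjusted p = 0.55). Sprr1a had 2.90 ± 1.66 and Rptn 2.34 ± 1.47. The values of Crnn, Sprr1a and Rptn were 8.09, 5.69 and 4.54 without ground control replicate 4. The anagen hair list had 29581, 1908 and 837 CPM in those ground controls and 1013 to 78348 CPM in those ESE mice, and its 14 genes had a median of 2.29. With the hair list as a covariate no member passed, but none passed without it, so that count does not bear on these values. Over the 12 alternatives other than leaving out 1 library, Crnn ran from 0.85 to 8.10 and Sprr1a from 0.42 to 5.70. The part of the hair list in these values was not tested.

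The difference of the ESE effect between the arms was tested as an interaction. None of 36 members passed (0% of all genes), and DESeq2, the likelihood ratio test and limma-voom called 0. Unadjusted, 3 members were under 0.05, where 4.8% of all genes were: Lce1c (-2.33 ± 0.93), Lce1f (-2.50 ± 1.02) and Lce1i (-2.16 ± 0.89), with an adjusted p of 1.0 each. All 12 S100 genes were above 0 (median 0.93), all 4 Sprr genes too (median 3.55), and 13 of 14 Lce genes were below (median -1.82, all genes -0.05). Lce1i had -1.33 without ground control replicate 4. Of the marker lists, 13 of 14 anagen hair genes were above 0 (median 1.93), as were all 5 melanocyte genes (median 4.32), and all 14 muscle genes were below (median -5.66). Their part in the interaction was not tested.

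The arms were also compared among mice that never flew. Between LAR and ISS ground controls 0 members passed (0% of all genes) and 4 were under an unadjusted 0.05, where 9.07% of all genes were. Lce1f (2.02 ± 0.82) and Lce1i (1.61 ± 0.71) were higher in the LAR arm, and S100a9 (-2.27 ± 1.04) and Crnn (-5.12 ± 2.35) lower, with adjusted p of 0.49 to 0.54. The members' share was near the background. DESeq2, the likelihood ratio test and limma-voom called 0 members, with 100, 15 and 0 of all genes. Without ground control replicate 3, the library richest in hair markers, S100a9 stood at -1.04 and Crnn at -0.58, and without ground control replicate 4 Lce1i stood at 0.77. All 14 anagen hair markers were below 0 in this comparison (median -2.47). With that list as a covariate Crnn had -0.07. Ground control replicate 3 was highest both in Crnn and in hair markers, so this fit cannot separate that library from the hair markers. The part of the hair markers in the values of Crnn and the other members was not tested. Lce1f had 0.657, 0.565 and 0.830 CPM in the ISS ground controls and 4.69, 2.62 and 1.15 CPM in the LAR ground controls, with no overlap, as in 5.52% of 13577 genes. S100a16 lay wholly lower in the LAR arm (81.2, 65.5 and 83.3 against 62.8, 39.9 and 30.8 CPM), as 5.08% of genes did. Replicates 4 to 6 of the ground controls thus enter the LAR contrast, the interaction and this comparison, and the 3 are not independent of each other.

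Among the ESE mice, LAR against ISS, 0 members passed (0% of all genes) and 2 were under an unadjusted 0.05 (background 5.44%): Lce1l (-1.24 ± 0.54) and Lce1c (-1.30 ± 0.57), with adjusted p = 0.88 each. Lce1c had 7.82, 2.42, 2.86, 2.48 and 7.73 CPM in the ISS arm and 1.13, 2.64, 1.62, 3.19 and 0.700 CPM in the LAR arm, and these overlapped. S100a13 had 0.82 ± 0.40 (adjusted p = 0.92), with its highest level in the adipocyte-rich non-responder replicate 4, and 0.38 without that library.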

How the data were processed

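Whole skin RNA of 16 mice was captured with an exon kit and sequenced in paired 100-base reads. The authors aligned reads with STAR to mm10, dropped reads of several places and made gene counts with featureCounts; a strand setting is not given in the sources used here. The deposited counts are raw. Columns with the authors' fold changes and p-values were not used. Deposited RNA integrity (a score), DV200 (a percent) and mapping figures are the authors' own. The 36 members and all lists were chosen with earlier results of these data known.

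Counts were tested in edgeR 4.0.16 (R 4.3.3; filterByExpr, TMM, robust quasi-likelihood F test, Benjamini-Hochberg over all genes, threshold 0.05) in fits of 2, 3 and 4 groups. CPM used TMM-scaled library sizes, and log2 values a pseudocount of 0.5. Library totals of 4159342 to 22593931 counts set the precision, and PCR reads are not independent molecules. Correlations used 100000 resamples, two-sided. The closest pair of libraries differed by 29.5 times the sampling noise (chi-square per degree of freedom), so each library was counted as its own sample. Replicates are separate mice. The edgeR test was also run on simulated counts drawn with the spread fitted to these data. For simulated log2 changes of 1 and 2 in size, it recovered 38.2% and 79.4% of genes in the ESE group contrast. In the LAR arm contrast it recovered 6.15% and 44.3%. These shares are over genes in general and need not hold for the members. The tested members varied more between mice than most genes did, from S100a16 at the 56.0th percentile to Crnn at the 99.2th. Recovery of the members themselves was not tested.

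Named members were the 3 of smallest p in each comparison and the 5 of highest level per kilobase in each role class; S100a1, S100a10, Lce1g, Lce1a2 and members in counts of 9 or fewer were named after their values were seen. Alternatives were RLE scaling, DESeq2 1.42.0, edgeR's likelihood ratio test, limma 3.58.1 voom with quality weights, estimation that was not robust, no filter on low values, a minimum of 10 counts per gene in each of the libraries, Rn45s left out, tissue-rich or ribosome-rich libraries left out, covariates (Krt5 and Krt14, hair list, arm) and each library left out.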

Additional observations from a re-analysis of the deposited data

Results flagged for a closer look

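In 30 of 108 sets of values (36 members in 3 groups) 1 library stood apart from the rest of its group in CPM. The gap was larger than Dixon's 95% critical value allows. Chance flags about 1 in 20 groups of normally distributed values. CPM was used here without logarithms, so that rate need not hold and the number of flags is not a measure of excess. The members are not independent of one another. All 30 were high values, in 27 members.

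Non-responder replicate 1, the library of fewest counts and of highest ribosomal share, stood apart in 13: Ivl (3219 CPM), Flg2 (4469), Hrnr (209.3), S100a4 (119.2), S100a7a (14.9), S100a8 (5.214), Lce6a (15.27), Lce1a1 (16.39), Lce1b (25.7), Lce1c (7.821), Lce1d (5.214), Lce1g (2.979) and Lce1h (2.607). Among the ground controls, replicate 3, the library richest in hair markers, stood apart in Crnn (1322 CPM), Sprr1a (1104), S100a3 (213.1), Sprr4 (86.64), Sprr2h (17.44), Rptn (8.028) and S100a9 (5.813).

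Ground control replicate 4 stood apart in Lor (3407 CPM), Lce1i (15.47), Lce1e (7.499) and Lce1j (5.859). Non-responder replicate 4, rich in adipocyte markers, stood apart in S100a1 (62.51 CPM) and S100a13 (32.72), and non-responder replicate 5 in Sprr2h (4.942). Among the responders, replicate 3 stood apart in S100a4 (95.09 CPM) and S100a10 (69.48), and replicate 4 in Sprr4 (51.1).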

How the results depend on the processing

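No member passed an adjusted p of 0.05 in any comparison or alternative, with 1 exception: limma-voom with quality weights called 2 members in the ISS arm, S100a10 and S100a11, where it gave S100a11 -1.84 (adjusted p = 0.021). It also turned Sprr2h in the ISS arm to 0.65, and with Krt5 and Krt14 as a covariate S100a11 stood at 0.0055. In the ESE group Ivl turned to 0.33 without the 3 libraries of highest ribosomal share. Crnn turned to -0.23 without the muscle-richest and liver-richest libraries and to -0.15 with the Krt5 and Krt14 covariate. Over all 13 alternatives other than leaving out 1 library, Crnn ran from -0.23 to 4.73. Leaving out 1 library at a time gave -0.80 to 0.035 for Ivl and -0.28 to 3.99 for Crnn. Medians over the members moved by more than 0.73, the SD between mice of their mean log2 CPM, in 3 comparisons. With the Krt5 and Krt14 covariate they were 0.43 in the ISS arm and -1.26 for the interaction. Without the 3 libraries of highest ribosomal share the interaction median was 1.18. Leaving out 1 library at a time gave -1.51 to 0.25 in the LAR arm and -1.05 to 0.75 for the interaction, the lowest in both without responder replicate 3. Within that spread, medians changed sign between LAR and ISS ground controls (-0.72 to 0.66), between LAR and ISS ESE mice (-0.77 to 0.18) and between the cohorts (-0.16 to 0.47). The cause was not tested. Members under an unadjusted p of 0.05 in the ESE group numbered 0 to 5 with 1 library left out (5 without ground control replicate 3) and 8 by limma-voom. The share of all genes at that level was not worked out for these alternatives. Of 980 alternative values for 35 results of named members, 966 kept direction and side of the threshold. None of the 35 passed in the main fit, and a value of the same sign was counted as kept whatever its size. The tally thus describes mainly the sign and does not measure how steady the sizes were.

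No paired analysis was possible because the labels give the groups no shared replicate numbers; some mouse names in the study's table share a number, which no source used here says marks a pair. Several Lce1 genes had few counts, and degraded RNA, ribosomal reads and the tissue caught in each piece of skin varied between libraries.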
